A study of Mus musculus with 4 samples.

Results

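Serpins and membrane-anchored serine proteases were followed in renal primary tubular epithelial cells from mouse kidney cortex, profiled by RNA sequencing. The members were all genes of the table whose symbols begin with Serpin or Tmprss, apart from those not reported here, together with St14, Prss8, Hpn, Spint1 and Spint2, which gave 40 of 18383 genes. They comprised 10 membrane-anchored serine proteases, 2 Kunitz inhibitors, 13 serpins of clade A, 8 of clade B and 7 of other clades. The choice used names and no measured value. There were 2 libraries of each of 2 genotypes, all from C57BL/6 mice labelled as 8 weeks old. KM carried the alleles given as MYCfl/fl and the transgene KspCre/+, and KMS carried the same 2 with SETD2fl/fl in addition, so the MYC allele and Cre were shared by both groups. KspCre mice make Cre recombinase from the Cdh16 (kidney-specific cadherin) promoter in tubular epithelium, so cells of other types in the preparation are not expected to recombine the floxed alleles. The series design text speaks of triplicates and of different genotypes, and the sample labels used here give 2 per genotype. The labels do not say whether the replicates came from separate animals, but the 2 libraries of each genotype differed in sex by their Xist and Y-linked counts and so were not from the same mouse.

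Serpins are protease inhibitors that present a reactive loop as bait, and the protease that cleaves it is trapped in a covalent complex. Clade A serpins are mostly secreted, clade B serpins stay mostly inside cells, and a few serpins, such as the collagen chaperone encoded by Serpinh1, inhibit no protease. Membrane-anchored serine proteases act at the epithelial surface, where prostasin and matriptase regulate sodium channels and tight junctions and the Kunitz inhibitors encoded by Spint1 and Spint2 hold them in check.

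Total counts were 18639040 and 14955148 in KM against 9780050 and 8886496 in KMS, and the KM libraries held 1.80 times as many counts in sum. Replicate 1 of each genotype had 12967 and 4363 counts of Xist and replicate 2 had 10 and 1, while 4 Y-linked genes summed to 1 and 0 counts against 3410 and 1471, so the libraries numbered 1 were female and those numbered 2 male. Setd2, the methyltransferase gene of the floxed allele, had 54.3 and 58.1 CPM (counts per 1000000 counts) in KM and 58.3 and 49.2 CPM in KMS, and the groups overlapped. Reads of exons that the floxed allele keeps enter this count, and the exons are not named in the labels, so it is no check of the genotypes. Cdh16, Pax8, Epcam, Cdh1 and Pax2, which mark renal epithelium, were detected in all 4 libraries. Cdh16 was higher in KMS by value, with 921 and 419 CPM in KM against 1496 and 992 CPM in KMS, while the log2 fold changes of the other 4 were negative. Podocyte, endothelial, leukocyte and mesenchymal markers were detected in all 4 libraries as well.

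In the model with genotype as the only term (edgeR quasi-likelihood test), none of the 34 members tested passed an adjusted p of 0.05, against 0.0333% of all 15002 genes, of which 0.00667% were higher and 0.0267% lower in KMS, and the lowest adjusted p was 0.066 for Serpinb9 (edgeR). At an unadjusted p under 0.05 there were 18 members, 5 higher and 13 lower in KMS, against 26.3% of all genes. With a term for sex (the sex model), added after the sex of the libraries was seen, 11 members passed (edgeR), 1 higher and 10 lower, against 5.43% of all genes. That model leaves 1 residual degree of freedom. Without KM replicate 1 the genotype-only model called 13 members, against 11.5% of all genes, and without KM replicate 2 it called 4, against 1.14%. Without either KMS library it called 0 members and 0% of all genes. The DESeq2 Wald test called 12 members, 2 higher and 10 lower, against 9.49% of all genes. In the table deposited by the authors, there were 2 members with an adjusted p under 0.05, Serpinb9 and Prss8, against 2.22% of all genes. Levels of the 2 genotypes did not overlap for 18 members lower in KMS, against 31.3% of all tested genes, and for 5 members higher, against 29%. The filter on low counts removed 6 members, Tmprss9, Tmprss11g, Serpina3h, Serpina7, Serpinb5 and Serpinb11. A further 6, Tmprss6, Tmprss11e, Tmprss13, Serpina1e, Serpina10 and Serpinf1, passed it through the KM libraries alone and so could only be lower in KMS. With 1 library left out, 1 library was enough to pass the filter. Without KM replicate 1, these 6, Tmprss11g, Serpinb5 and Serpinb11 entered through KM replicate 2 alone. They could only be lower there, so that fit is no test of them. The same holds for Serpina10 and Tmprss6 without KM replicate 2.

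Per kilobase of exon, the highest mean levels in KM were those of Spint2 at 178, Prss8 at 96.7, Serpine2 at 89.4 and Hpn at 87.0 CPM per kilobase. Of these neighbours, the KM libraries of Prss8, Serpine2 and Hpn overlapped, with 107.8 and 85.5, 105.6 and 73.1, and 97.6 and 76.4 CPM per kilobase. This order depends on the length used. Per kilobase of the longest annotated transcript, Prss8 at 96.7 and Hpn at 91.9 CPM per kilobase came before Spint2 at 76.0 and Serpine2 at 58.2. In KMS, Prss8 at 178 and Hpn at 138 CPM per kilobase of exon had the highest means, in that order also by the longest transcript, and their KMS libraries did not overlap.

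The membrane-anchored proteases divided into a set that was abundant in every library and higher in KMS by value, Prss8, Hpn and Tmprss2, and a set that was lower in KMS, St14, Tmprss4, Tmprss6, Tmprss11e, Tmprss13 and, untested, Tmprss11g. The median log2 fold change of the 8 tested proteases was -3.49, with 3 positive and 5 negative, against -0.01 over all tested genes. This median lies midway between Tmprss4 at -5.13 and St14 at -1.86, and no protease lay near it. Placing Tmprss6 and Tmprss11e, which had no KMS counts, at their bounds could not move it, since both stay below Tmprss4. Of the 8, 3 had passed the filter through KM alone and could only be lower. Without KM replicate 2 the median was -1.25, but over 9 proteases. Tmprss9, at 2.52, had entered that fit through KMS replicate 2 and could only be higher. In the model with a term for sex 5 of the 8 fell and none rose (edgeR), against 3.5% and 1.93% of all genes. Those that fell were St14, Tmprss4, Tmprss6, Tmprss11e and Tmprss13.

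Prss8 (chromosome 7, 127925717 to 127930149, GRCm38) encodes prostasin, a lipid-anchored protease that activates the epithelial sodium channel. It had 199.7 and 158.3 CPM in KM against 344.4 and 315.5 CPM in KMS. Both KMS libraries lay above both KM libraries. Its log2 fold change came to 0.88 ± 0.22 (SE; edgeR adjusted p = 0.099 for genotype alone and 0.079 in the sex model), and the authors' deposited table gave an adjusted p of 0.043. Hpn (chromosome 7, 31098725 to 31115326) encodes hepsin, which releases uromodulin from the surface of thick ascending limb cells. It had 191.7 and 150.2 CPM in KM against 240.1 and 303.8 CPM in KMS, without overlap (log2 fold change 0.67 ± 0.24 SE, edgeR adjusted p = 0.151). Tmprss2 (chromosome 16, 97564682 to 97659541), whose product primes several respiratory viruses for entry, had 112.5 and 111.3 CPM in KM against 174.2 and 157.8 CPM in KMS (log2 fold change 0.57 ± 0.18 SE, edgeR adjusted p = 0.128). All 3 were higher in KMS in both the female and the male pair and none passed in either edgeR model, while the DESeq2 Wald test called Prss8 and Tmprss2 (adjusted p = 0.00217 and 0.0392) and not Hpn (0.0543). Markers of the proximal tubule were higher in KMS too, 8 of 8 by value, with a summed 7826 and 5487 CPM in KM against 16111 and 14110 CPM in KMS. Their part in the levels of these 3 proteases was not tested, and in such bulk samples fewer cells of a type and less RNA per cell cannot be told apart. Exons of Prss8 overlap those of Kat8 on the opposite strand, and the sources used here do not say whether counting used strand.

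St14 (chromosome 9, 31088590 to 31131811) encodes matriptase, an epithelial protease that activates prostasin and the precursor of hepatocyte growth factor. It had 33.4 and 68.0 CPM in KM against 15.6 and 12.3 CPM in KMS. Both KMS libraries were below the lower KM library and KM replicate 2 was the highest. Its log2 fold change came to -1.86 ± 0.37 (SE; edgeR adjusted p = 0.082 for genotype alone and 0.028 in the sex model), with -1.07 between the female libraries and -2.42 between the male ones. Without KM replicate 2 it was -1.25.

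Tmprss6 (chromosome 15, 78439667 to 78468648) encodes matriptase-2, which restrains the iron hormone hepcidin in liver. It had 88 and 263 counts in KM against 0 in both KMS libraries, or 4.75 and 16.1 CPM in KM. Set against a floor of 3 counts over the KMS group, or 0.168 CPM, the KM mean was at least 62.2-fold higher, and KM replicate 1 alone at least 28.3-fold. It fell in the model with a term for sex (edgeR adjusted p = 0.0054), and was at an edgeR adjusted p of 0.074 without it. Tmprss6 had passed the filter through KM alone and could only be lower. With 1 KM library left out, the fit takes its spread from the KMS libraries, both at 0. Such a fit cannot show how KM varies.

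Tmprss4 (chromosome 9, 45172726 to 45204119), a protease overexpressed in several carcinomas, had 5.72 and 80.2 CPM in KM against 1.55 and 0.850 CPM in KMS. Most of the KM signal came from replicate 2. Its log2 fold change came to -5.13 ± 1.32 (SE; edgeR adjusted p = 0.100 for genotype alone and 0.036 in the sex model), and -2.22 without KM replicate 2 (edgeR adjusted p = 0.107). Exons of Tmprss4 overlap the opposite-strand gene Gm17099, with which it shares 15.8% of its transcript sequence. Its neighbour Tmprss13 (chromosome 9, 45318988 to 45347581), 114.9 kilobases away, had 57 and 312 counts in KM against 2 and 0 in KMS. The ratio of pooled counts, corrected for depth, was 94.8, with a 95% interval of 26.04 to 785 that covers counting error only (edgeR adjusted p = 0.084 for genotype alone and 0.015 in the sex model). Without KM replicate 2 the fitted log2 fold change of Tmprss13 moved from -6.52 to -4.67 (edgeR adjusted p = 0.065).

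Tmprss11e (chromosome 5, 86705186 to 86745807) and Tmprss11g (chromosome 5, 86485877 to 86518600) lie 186.6 kilobases apart in a cluster of airway-trypsin-like proteases of stratified epithelia. Tmprss11e had 39 and 678 counts in KM against 0 in both KMS libraries, a KM mean at least 130-fold above the floor and at least 12.6-fold in KM replicate 1 (edgeR adjusted p = 0.106 for genotype alone and 0.0027 in the sex model). Tmprss11g had 4 and 501 counts in KM against 0 in KMS, at least 92.2-fold over the group but at least 1.29-fold in KM replicate 1, and was not tested because 1 library held nearly all its reads. Tmprss9, a protease with several catalytic domains, had 5 and 5 counts in KM against 1 and 26 in KMS and was not tested. Both KMS libraries were at 0 for 6 of the 40 members, against 2.58% of all genes.

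**Figure D1:**
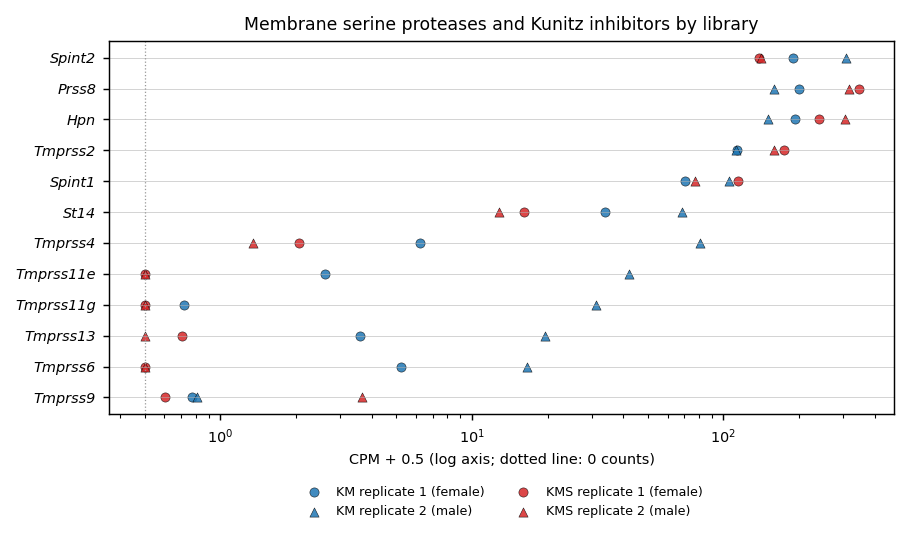
Level of each membrane serine protease and Kunitz inhibitor in the 4 libraries, as CPM plus 0.5 on a log axis, with the dotted line at 0 counts. Blue marks KM and red KMS, circles the female and triangles the male library. Prss8, Hpn and Tmprss2 lie to the right in KMS, and Tmprss4, Tmprss11e, Tmprss11g, Tmprss13 and Tmprss6 are highest in the male KM library.

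Urothelial and basal epithelial markers were lower in KMS by value together with these proteases. All 5 tested genes of that list had lower values in KMS. Of these, Krt5, Krt20, Upk1b and Upk3a passed the filter on low counts through the KM libraries alone and could only be lower. The 7 genes of the list with a row summed to 9.56 and 77.4 CPM in KM against 1.66 and 2.31 CPM in KMS. Krt5 had 3.24 and 24.4 CPM in KM, and Krt5 and Krt14 were at 0 in both KMS libraries. Markers of tubular injury were lower by value too, 8 of 8. Of the 8, Havcr1 passed the filter on low counts through the KM libraries alone and could only be lower. The 8 summed to 4117 and 9723 CPM in KM against 3177 and 1182 CPM in KMS. Spp1 made up most of each sum, with 3545, 8494, 2762 and 987 CPM in the same order of libraries. The part of these cells and states in the protease values was not tested.

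**Figure D2:**
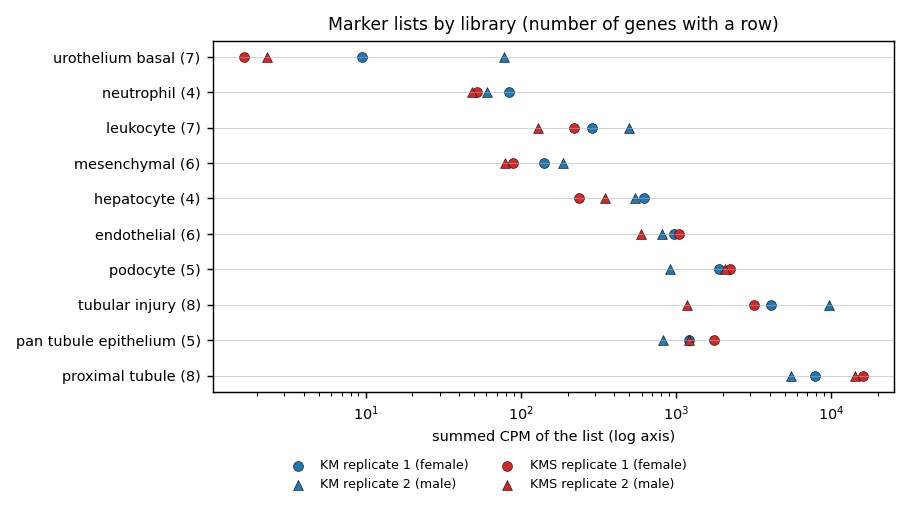
Summed CPM of 10 marker lists in the 4 libraries on a log axis, with the number of genes that had a row in brackets and the symbols as in the plot of proteases. The urothelial and basal list is highest in the male KM library at 77.4 CPM and lowest in KMS at 1.66 and 2.31 CPM, and the proximal tubule list is highest in KMS.

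The Kunitz inhibitors passed in neither edgeR model. Spint2 (chromosome 7, 29256330 to 29282059), whose product inhibits hepsin, matriptase and prostasin, had 188.5 and 305.6 CPM in KM against 137.7 and 140.8 CPM in KMS. Levels in KMS were below both KM libraries (log2 fold change -0.83 ± 0.28 SE, edgeR adjusted p = 0.136 for genotype alone and 0.114 in the sex model). Spint2 was called without KM replicate 1, at -1.12 (edgeR adjusted p = 0.033), but not without KM replicate 2, at -0.43 (edgeR adjusted p = 0.555), nor without either KMS library. Spint1 (chromosome 2, 119237360 to 119249535), the main inhibitor of matriptase, had 70.1 and 104.9 CPM in KM against 113.9 and 76.7 CPM in KMS. The groups overlapped (log2 fold change 0.12 ± 0.29 SE with an edgeR adjusted p = 0.815), and the sign turned to -0.01 when counts were scaled by library totals.

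Of the 13 clade A serpins, 12 lie on chromosome 12, between 103616675 and 104414334, and 11 were tested. Their median log2 fold change was -0.55, with 4 positive and 7 negative. Serpina10, Serpina1e and Serpina1f fell in the model with a term for sex (edgeR), and none rose, against 3.5% and 1.93% of all genes. Of these, Serpina10 and Serpina1e had passed the filter through KM alone and could only be lower. Without KMS replicate 1 the median was -2.13. Serpina10 (chromosome 12, 103616675 to 103631490), which encodes the protein Z-dependent inhibitor of coagulation factor Xa, had 83 and 365 counts in KM against 1 and 2 in KMS. The ratio of pooled counts was 76.7, with a 95% interval of 26.1 to 373 for counting error only (edgeR adjusted p = 0.077 for genotype alone and 0.0030 in the sex model). The log2 fold change of Serpina10 was -6.95 without KM replicate 1 and -4.65 without KM replicate 2.

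The Serpina1 genes are the mouse copies of alpha-1-antitrypsin, the inhibitor of neutrophil elastase, which humans carry as a single gene. Serpina1f (chromosome 12, 103688044 to 103695529) had 80.2 and 13.2 CPM in KM against 4.96 and 2.67 CPM in KMS. It was highest in the female KM library, unlike Tmprss4 and Tmprss6, and the groups did not overlap (log2 fold change -3.60 ± 0.88 SE, edgeR adjusted p = 0.096 for genotype alone and 0.0096 in the sex model). Without KM replicate 1 its log2 fold change was -1.76. Serpina1e (chromosome 12, 103946931 to 103956897) had 17 and 366 counts in KM against 0 in both KMS libraries. Its KM mean was at least 69.6-fold above the floor and KM replicate 1 at least 5.48-fold (edgeR adjusted p = 0.122 for genotype alone and 0.0066 in the sex model). Serpina1a, Serpina1b, Serpina1c and Serpina1d overlapped between groups. Serpina1a ranged from 3.99 to 11.5 CPM in KM and from 0.607 to 15.9 CPM in KMS, where replicate 1 was the higher. Serpina1d had 7.56 and 10.4 CPM in KM against 10.1 and 2.19 CPM in KMS. These copies are uncertain, since stretches of at least 100 bases with at least 97% identity to another gene covered 84.3% of the Serpina1a transcript, 75.7% of Serpina1b, all of Serpina1c, 21.2% of Serpina1d and 19% of Serpina1e, but 0 of Serpina1f.

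The Serpina3 genes correspond to human alpha-1-antichymotrypsin. Serpina3n (chromosome 12, 104406646 to 104414334), an acute-phase serpin that inhibits leukocyte proteases, had 5.56 and 5.39 CPM in KM against 2.28 and 1.21 CPM in KMS. Its KM replicates were close together and both KMS libraries were lower (log2 fold change -1.63 ± 0.42 SE, edgeR adjusted p = 0.101). Serpina3g, an intracellular inhibitor of cathepsins, had 32.9 and 21.1 CPM in KM against 39.9 and 20.04 CPM in KMS, with overlap and no call (edgeR adjusted p = 0.829). Serpina3i had 1.13 and 1.71 CPM in KM against 1.03 and 0.729 CPM in KMS (log2 fold change -0.67 ± 0.52 SE, edgeR adjusted p = 0.444). Serpina3f overlapped between groups. Serpina3f, Serpina3h and Serpina3i share 17.1%, 31.0% and 17.5% of their transcripts with Serpina3g and are uncertain. Serpina3h and Serpina7, the gene of thyroxine-binding globulin on chromosome X, had at most 8 counts in any library. Leukocyte markers were lower in KMS by value, with 6 of 6 tested negative and a summed 286 and 498 CPM in KM against 221 and 130 CPM in KMS. Of 4 hepatocyte genes with a row 3 were lower by value, and the 4 summed to 619 and 542 CPM in KM against 236 and 349 CPM in KMS. Most of that sum was Apob, at 489 and 293 CPM in the KM libraries. The exception was Alb, the albumin gene, whose KMS libraries stood at 18.8 and 7.77 CPM beside 12.6 and 6.37 CPM for KM. Its groups overlapped (log2 fold change 0.49 ± 0.51 SE), so the list did not move as 1 set. The part of either cell type in the serpin values was not tested.

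**Figure D3:**
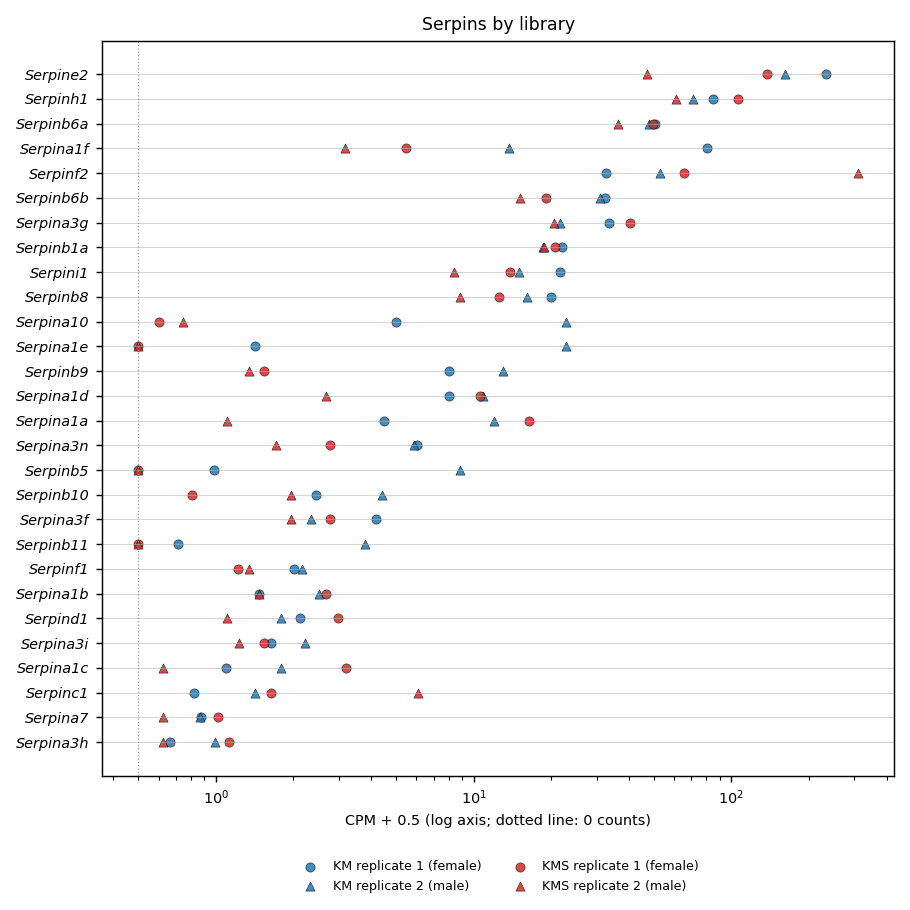
Level of each serpin in the 4 libraries, as CPM plus 0.5 on a log axis with the dotted line at 0 counts, ordered by the mean in KM, symbols as in the plot of proteases. Serpina10 and Serpinb9 show both KMS libraries to the left of both KM libraries, and Serpinf2 stands far to the right in the male KMS library.

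Clade B serpins were lower in KMS or overlapped. Of 8 members 6 were tested, all 6 with a negative log2 fold change and a median of -0.84. Serpinb9 alone fell in the model with a term for sex (edgeR), against 3.5% of all genes. The median was -1.96 without KMS replicate 2, a fit in which all 8 were tested. Serpinb5, Serpinb11, Serpinb10 and Serpinb8 lie within a cluster on chromosome 1, from 106861175 to 107608978, and Serpinb1a, Serpinb6b, Serpinb9 and Serpinb6a on chromosome 13, from 32842092 to 34002794. Levels of all 4 members of the chromosome 1 cluster were lower in both KMS libraries than in either KM library, as in 31.3% of all tested genes, but Serpinb5 and Serpinb11 were not tested and had only 9 and 4 counts in KM replicate 1.

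Because these 4 neighbours had lower values in KMS together, their upstream windows were read, the 250 bases before a listed start on the plus strand from RefSeq (GRCm38.p6). Those of Serpinb5 and Serpinb10 are shown, the latter running 9 bases past the first start RefSeq gives for the gene. The Serpinb11 window lies within GENCODE exons of the gene over all its 250 bases and that of Serpinb8 runs 80 bases past its first RefSeq start, so these are not printed. Capitals mark matches to TGANTCA, a relaxed form of the site of AP-1, the dimer of Fos and Jun proteins that responds to growth factors and stress.
Serpinb5: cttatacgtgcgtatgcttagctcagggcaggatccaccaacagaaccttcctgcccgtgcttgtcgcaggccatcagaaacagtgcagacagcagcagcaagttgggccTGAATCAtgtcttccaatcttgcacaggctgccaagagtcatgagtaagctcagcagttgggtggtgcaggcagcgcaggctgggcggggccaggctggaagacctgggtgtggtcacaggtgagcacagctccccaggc
Serpinb10: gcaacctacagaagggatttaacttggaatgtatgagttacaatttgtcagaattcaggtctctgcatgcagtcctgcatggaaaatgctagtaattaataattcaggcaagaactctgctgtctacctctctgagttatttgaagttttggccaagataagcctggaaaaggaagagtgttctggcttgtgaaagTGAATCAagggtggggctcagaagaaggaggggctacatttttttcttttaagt
The windows span chr1:106860925-106861174 for Serpinb5, chr1:107362064-107362313 for Serpinb11, chr1:107528753-107529002 for Serpinb10 and chr1:107589756-107590005 for Serpinb8. The match began 140 bases before the start in Serpinb5, 181 and 76 in Serpinb11, 54 in Serpinb10 and 23 in Serpinb8, of which the last, TGAGTCA, is the classical form of the site. Over both strands, 6.75% of the 32851 windows of this length for all genes held the pattern, against 8 of 35 windows of the 31 members with an entry in the promoter table. The other 4 members with a match were Serpina1a, Serpina1b, Serpina1c and Serpina1d, close copies of one another. Windows of members held neither CACGTG, the E-box bound by MYC, nor AACNGGTT, the core of the grainyhead site, which 6.02% and 1.79% of all windows held. TATAAA, the TATA box, was in windows of Serpina3f and Serpina7 and in 12.37% of all windows. The motifs and the 4 genes were chosen after their values were seen, and a match is a description of the letters, not a binding site. Prss8, Serpina10, Serpina3h, Serpinb1a, St14, Tmprss11e, Tmprss13, Tmprss4 and Tmprss6 had no entry.

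Serpinb5, which encodes maspin, a serpin of basal epithelial cells that inhibits no protease, had 9 and 136 counts in KM against 0 in KMS. Its KM mean was at least 26.3-fold above the floor, and KM replicate 1 at least 2.90-fold. Serpinb11 had 4 and 54 counts in KM against 0 in KMS, at least 10.5-fold over the group and at least 1.29-fold in KM replicate 1. Neither was tested in the main model. Fits that left out another library took both genes in through KM replicate 2 alone, which held most of their reads. Both could then only be lower in KMS, so those fits are no test of them. The DESeq2 Wald test, run without the filter of the main model, called Serpinb11, whose 4 and 54 counts all lay in KM. Serpinb10, whose product is found in myeloid cells, had 1.94 and 3.92 CPM in KM against 0.310 and 1.46 CPM in KMS (log2 fold change -1.75 ± 0.75 SE, edgeR adjusted p = 0.202). Its log2 fold change was -0.96 without KMS replicate 1 and -3.18 without KMS replicate 2. Serpinb8, an inhibitor of furin in human cells, had 19.5 and 15.6 CPM in KM against 12.1 and 8.38 CPM in KMS (log2 fold change -0.77 ± 0.28 SE, edgeR adjusted p = 0.155). The urothelial and basal markers described above were lower in KMS by value like Serpinb5 and Serpinb11, and leukocyte markers like Serpinb10. Within KMS, Serpinb10 had 3 counts in replicate 1 and 12 in replicate 2. The leukocyte markers summed to 221 and 130 CPM in these libraries, mostly from Lyz2 at 158 and 94.7 CPM. The part of these markers' cells was not tested.

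Serpinb9 (chromosome 13, 32997061 to 33017955) encodes the intracellular inhibitor of granzyme B, which shields cells from cytotoxic granules. It had 7.56 and 12.5 CPM in KM against 1.03 and 0.850 CPM in KMS. Both KMS libraries were at a fraction of either KM library, and the replicates of each genotype were closer to each other than to the other genotype. Its log2 fold change came to -3.39 ± 0.44 (SE; edgeR adjusted p = 0.066 for genotype alone and 0.013 in the sex model), with -2.39 between the female libraries and -3.27 between the male ones. The log2 fold change of Serpinb9 was -3.69 without KM replicate 1 and -2.98 without KM replicate 2. The authors' deposited table gave it an adjusted p of 0.0028. Serpinb6b, 18.0 kilobases away, had 31.9 and 30.5 CPM in KM against 18.5 and 14.6 CPM in KMS, without overlap (log2 fold change -0.91 ± 0.21 SE, edgeR adjusted p = 0.092). Serpinb6a, an inhibitor of cathepsin G and trypsin-like proteases, had 50.2 and 47.6 CPM in KM against 49.2 and 36.0 CPM in KMS, and the groups overlapped (log2 fold change -0.20 ± 0.21 SE, edgeR adjusted p = 0.573). Serpinb1a, an inhibitor of neutrophil serine proteases, had 21.6 and 18.1 CPM in KM against 20.2 and 18.3 CPM in KMS (log2 fold change -0.04 ± 0.21 SE, edgeR adjusted p = 0.917). The spread of the libraries of these last 2 genes exceeded the difference between genotypes. Granzyme genes were near the limit of detection, with 0.324 and 1.04 CPM of Gzmb in KM and 1.55 and 0.729 CPM in KMS.

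The 7 remaining serpins were all tested, with 4 positive and 3 negative log2 fold changes. Their median was 0.10, which was -0.01 with library totals, -0.05 in the sex model and -0.85 without KMS replicate 1. In the model with a term for sex Serpine2 fell and Serpinf2 rose (edgeR), against 3.5% and 1.93% of all genes. Serpine2 (chromosome 1, 79794317 to 79858665) encodes protease nexin-1, an inhibitor of thrombin and urokinase, and was the serpin of highest mean level per kilobase in KM. It had 233.4 and 161.6 CPM in KM against 137.5 and 46.5 CPM in KMS. Its KMS libraries differed widely from each other but were both below KM (log2 fold change -1.10 ± 0.50 SE, edgeR adjusted p = 0.224 for genotype alone and 0.0497 in the sex model). Without KMS replicate 2 it was -0.51 and without KMS replicate 1 it was -2.05. Mesenchymal markers were lower in KMS, 6 of 6 by value, with a summed 141 and 187 CPM in KM against 89.0 and 79.6 CPM in KMS, and their part in these values was not tested.

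Serpinf2 (chromosome 11, 75431736 to 75439501) encodes alpha-2-antiplasmin, the circulating inhibitor of plasmin, which is made in liver and kidney. It had 32.1 and 52.5 CPM in KM against 65.2 and 310.6 CPM in KMS. Both KMS libraries were above KM, and the male KMS library stood far above the other 3 (log2 fold change 2.15 ± 0.70 SE, edgeR adjusted p = 0.131 for genotype alone and 0.035 in the sex model). Without KMS replicate 2 it was 0.64. The adjacent gene Serpinf1, 9.1 kilobases away, encodes pigment epithelium-derived factor, an inhibitor of angiogenesis, and had 1.51 and 1.65 CPM in KM against 0.724 and 0.850 CPM in KMS (log2 fold change -1.003 ± 0.47 SE, edgeR adjusted p = 0.235). By value the neighbours lay on opposite sides, but Serpinf1 had passed the filter through the KM libraries alone and could only be lower. Only Serpinf2 passed the model with a term for sex. Serpinc1, the gene of antithrombin, had 6 and 15 counts in KM against 11 and 46 in KMS (log2 fold change 2.42 ± 0.88 SE with an edgeR adjusted p = 0.156, and 0.90 for the log2 fold change without KMS replicate 2). It shares 59.2% of its annotated transcript with Zbtb37 on the opposite strand, so its count is uncertain.

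Serpini1, the gene of neuroserpin, an inhibitor of tissue plasminogen activator, had 21.1 and 14.5 CPM in KM against 13.3 and 7.90 CPM in KMS (log2 fold change -0.74 ± 0.34 SE, edgeR adjusted p = 0.227). Serpinh1, the collagen chaperone, had 84.4 and 70.4 CPM in KM against 105.3 and 60.6 CPM in KMS and overlapped (log2 fold change 0.10 ± 0.29 SE with an edgeR adjusted p = 0.852, and -0.01 for the log2 fold change with library totals). Serpind1, the gene of heparin cofactor II, had 1.62 and 1.29 CPM in KM against 2.48 and 0.607 CPM in KMS (log2 fold change 0.11 ± 0.67 SE, edgeR adjusted p = 0.931). Neither Serpinh1 nor Serpind1 differed by more than the spread of its replicates.

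**Figure D4:**
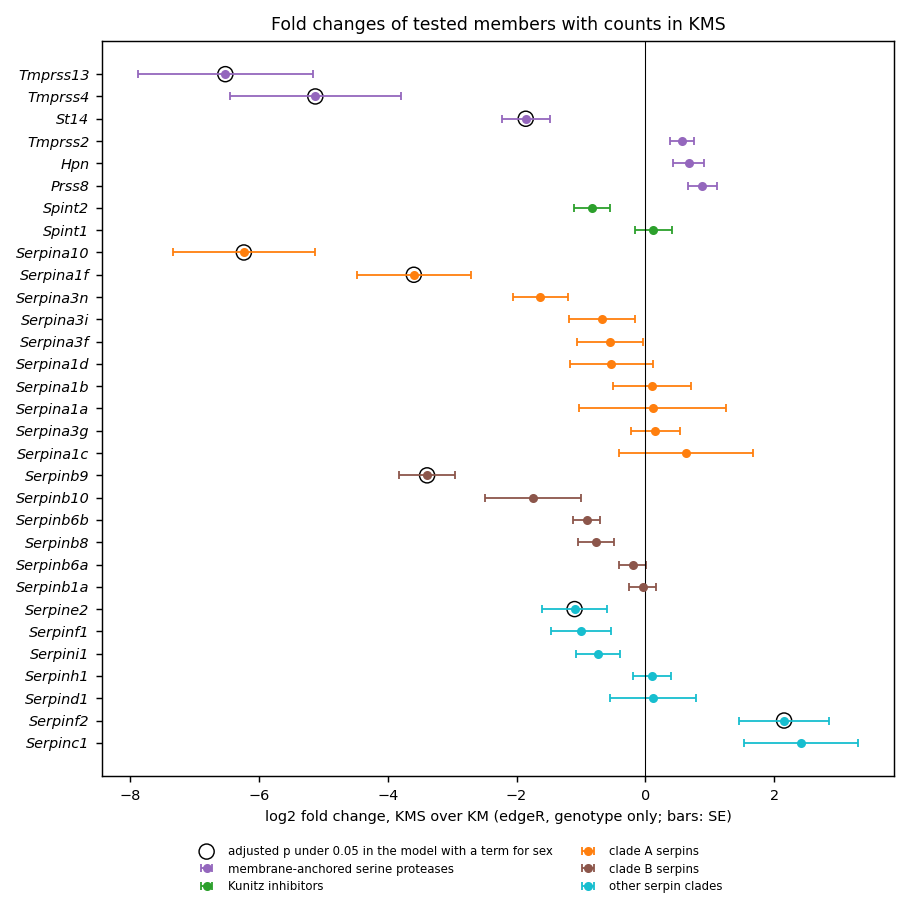
Log2 fold change of KMS over KM for the tested members that had counts in KMS, by role (edgeR, genotype only, bars give the SE). Circles mark members with an adjusted p under 0.05 in the model with a term for sex, of which Serpinf2 is the one to the right of 0. Tmprss6, Tmprss11e and Serpina1e are left out because both KMS libraries had 0 counts.

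Within pairs of equal sex, the median log2 ratio over the 34 tested members, after adding 0.5 CPM, was -0.52 between the female libraries and -0.95 between the male ones, against -0.01 in each for all tested genes. For the membrane-anchored proteases these medians were -1.34 and -3.74, and for clade B serpins -0.72 and -0.95. Tmprss4 differed most between the pairs among the tested proteases, with -1.60 in the female and -5.90 in the male pair. Serpina1f went the other way, with -3.88 in the female and -2.11 in the male pair. With 1 library per sex and genotype, a difference between the pairs cannot be tested.

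**Figure D5:**
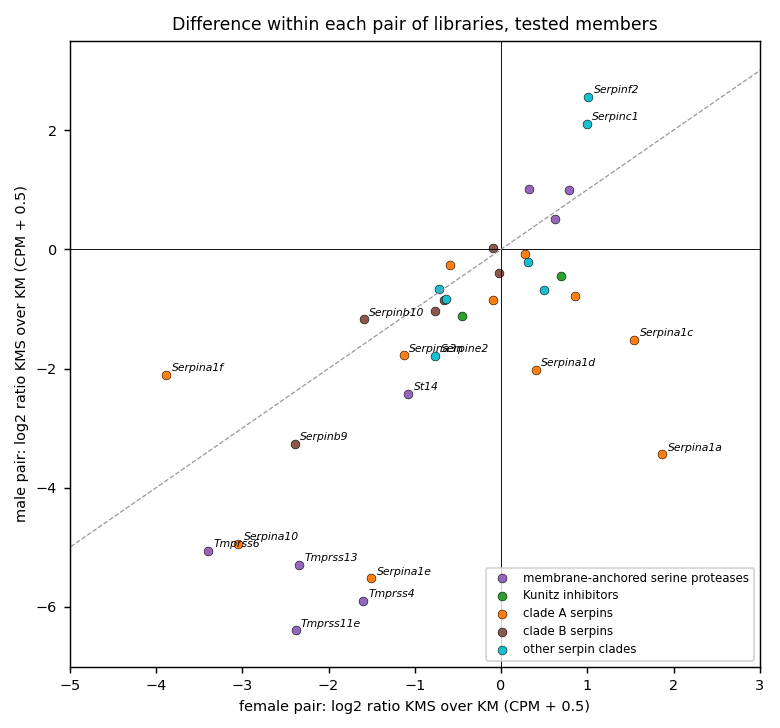
Log2 ratio of KMS over KM in the female pair (horizontal) and the male pair (vertical) for the 34 tested members, after adding 0.5 CPM and coloured by role, with the dashed line marking equal ratios. All tested proteases of negative ratio lie below the line, Serpina1f lies above it, and Serpina1a has opposite signs in the pairs.

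Other genes of the same pathways were read from 3 lists. Of 27 proteases that serpins inhibit and their receptors, 20 were tested, with a median log2 fold change of -0.20, and none passed in the genotype-only model (lowest edgeR adjusted p = 0.097). In the model with a term for sex 1 rose and none fell, against 1.93% and 3.5% of all genes. The gene that rose was Klk1, the tissue kallikrein of the connecting tubule. It had 682 and 136 CPM in KM against 1837 and 1055 CPM in KMS (edgeR adjusted p = 0.035). F3, the gene of tissue factor, which starts coagulation, had 28.1 and 302.6 CPM in KM against 12.2 and 15.9 CPM in KMS (log2 fold change -3.56 ± 1.03 SE, edgeR adjusted p = 0.109), so its KM mean rested on replicate 2. The cysteine proteases Ctss and Ctsk had log2 fold changes of -1.92 ± 0.47 and -1.47 ± 0.53, and Ctsh of 0.72 ± 0.22 (SE), with no call in either edgeR model, while the DESeq2 Wald test called Ctss and Ctsh (adjusted p = 0.00502 and 0.0358). The plasminogen activator genes Plau and Plat, whose products Serpine2 and Serpini1 can inhibit, overlapped between genotypes, with 214.7 and 132.6 CPM of Plau in KM against 154.9 and 272.8 CPM in KMS, and 550.7 and 537.3 CPM of Plat in KM against 610.9 and 336.1 CPM in KMS.

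Among 16 clearance receptors, cofactors and inhibitors that are not serpins, 12 were tested with a median of -0.03, and none passed (lowest edgeR adjusted p = 0.095). With the term for sex 2 fell and none rose, against 3.5% and 1.93% of all genes. Those that fell were Slpi, a secreted inhibitor of leukocyte proteases, and the metalloproteinase inhibitor Timp1. Slpi had 3.29 and 9.12 CPM in KM against 0.724 and 1.21 CPM in KMS (edgeR adjusted p = 0.029). Timp1 had 2.21 and 10.1 CPM in KM against 0.414 and 0 CPM in KMS (edgeR adjusted p = 0.044). Timp1 had passed the filter through the KM libraries alone and could only be lower. Lrp1, the receptor that removes serpin complexes, had 44.97 and 70.3 CPM in KM against 31.4 and 24.2 CPM in KMS, and Vldlr 78.2 and 67.5 CPM in KM against 121.3 and 107.9 CPM in KMS. Neither was called in either edgeR model, and both were by the DESeq2 Wald test (adjusted p = 0.0258 and 0.0323). Of 16 substrates and effectors of matriptase, prostasin and hepsin, 14 were tested with a median of 0.03 and none passed (lowest edgeR adjusted p = 0.100). With the term for sex 1 rose and none fell, against 1.93% and 3.5% of all genes. The gene that rose was Scnn1g, the channel subunit that prostasin cleaves. It had 18.6 and 12.1 CPM in KM against 43.3 and 24.8 CPM in KMS (edgeR adjusted p = 0.032). Scnn1a overlapped, with 90.5 and 47.6 CPM in KM against 117.6 and 60.1 CPM in KMS. Epcam, cleaved by matriptase, had 74.8 and 139.5 CPM in KM against 50.3 and 35.2 CPM in KMS (log2 fold change -1.32 ± 0.34 SE), Muc1 -1.89 ± 0.56 and Hgfac, a protease that activates hepatocyte growth factor, -1.74 ± 0.49. None of these 3 was called in either edgeR model, and all 3 were by the DESeq2 Wald test (adjusted p = 0.00867, 0.0104 and 0.00891). Umod, the substrate of hepsin, overlapped with 1809 and 540 CPM in KM against 2284 and 1399 CPM in KMS.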

How the data were processed

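Raw read counts per gene for 4 libraries, deposited by the authors, were the measurement used. Per the submitters' processing notes, cutadapt 1.9.1, Trimmomatic 0.35, FastQC, HISAT2, StringTie, MACS2 2.1.1 and the build GRCm38 were named without their roles. The sources used here name no counting program. Per the labels, libraries were poly(A)-selected and directional. The deposited table also holds the authors' mean normalised signal per group, its ratio and log2 value, and p-values from an unnamed test. The log2 value is set to a fixed limit where a group is at 0. A second sheet of ratios was not used.

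The members and lists were chosen with earlier results of these data known. Counts were fitted with edgeR 4.0.16 in R 4.3.3 (TMM, filterByExpr with minimum count 10 and total 15, 15002 genes, genotype as the only term, Benjamini-Hochberg over all genes). A positive log2 fold change is a higher level in KMS, and the SE comes from the F statistic. CPM used TMM-adjusted totals. Alternatives were DESeq2 1.42.0, limma 3.58.1 (voom), other scalings, no filter, a replicate block, a term for sex (added later) and each library left out. The fits were tested on simulated data. Named were, by role, the tested members of smallest p (up to 8 in each role, 5 in clade A), and of each pathway list those called in either edgeR model and the 4 of smallest p. Further members, such as those with 0 counts in KMS, the other Serpina1 and Serpina3 genes and the uncalled pathway genes Plau, Plat, Scnn1a, Umod and Gzmb, were named after their values were seen. Floors and intervals cover counting error only. Replicates differed by more than sampling noise (chi-square per degree of freedom 61.9 in KM and 40.5 in KMS). Transcript overlaps come from GENCODE M21, positions from RefSeq GRCm38.p6. Some genes that matched the rule are not reported here.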

Additional observations from a re-analysis of the deposited data

Results flagged for a closer look

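For 9 tested members the female and the male pair of libraries moved in opposite directions between KM and KMS, and with 1 library per sex and genotype the difference was not tested. The log2 ratio of KMS over KM, after adding 0.5 CPM, was 1.87 in the female and -3.44 in the male pair for Serpina1a. For Serpina1c it was 1.54 and -1.52, for Serpina1b 0.86 and -0.78, and for Serpina1d 0.40 and -2.02. These 4 neighbouring copies share transcript sequence, so they are not independent observations. The other 5 were Spint1 at 0.70 and -0.45, Serpind1 at 0.49 and -0.69, Serpinh1 at 0.32 and -0.21, Serpina3g at 0.27 and -0.07, and Serpinb1a at -0.10 and 0.02.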

How the results depend on the processing

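Calls varied with the model. Over all genes 5 were called, against 3 with library totals, 1 with limma-voom, 1745 with the DESeq2 Wald test, 815 with the replicate block and 0 to 1786 with 1 library left out. For the members 0 were called, against 12 with DESeq2, 11 with the replicate block and 0 to 13 with 1 library left out. For the pathway lists 0 were called, against 11 with DESeq2, 4 with the replicate block and 0 to 13 with 1 library left out. The term for sex is the same fit as the replicate block and gave the same 815, 11 and 4. The labels give no shared litter or day, and deviations of equal replicate numbers correlated at 0.117 over genes. All that is known to be shared is a number and, by Xist and Y-linked counts, a sex. A shared litter or day was not tested. DESeq2 gave no adjusted p for 2 members. Median log2 fold changes with 1 library left out were -4.76 to -1.25 for the proteases, over 9 or 10 members instead of 8. They were -2.13 to -0.26 for clade A, -1.96 to -0.93 for clade B and -0.85 to 0.46 for the other clades, whose median of 0.10 was -0.14 with limma-voom. For clade B the median was -1.30 both with DESeq2 and with no filter, where 8 members were fitted. With library totals the median of all genes moved from -0.01 to -0.13. Among the members given with their own fold change, signs turned for Spint1 (-0.01 with library totals, -0.15 to 0.45 with 1 library left out), Serpinh1 (-0.01 and -0.32 to 0.46), Serpind1 (-0.14 with limma-voom, -0.05 with the replicate block or the term for sex, -1.21 to 0.79 with 1 library left out), Serpinb6a (-0.41 to 0.03 with 1 library left out) and Serpinb1a (-0.16 to 0.10 with 1 library left out). Among the others they turned, with 1 library left out, for Serpina1a (-3.61 to 1.06, and -0.48 in the sex model), Serpina1b (-0.57 to 0.71), Serpina1c (-2.82 to 1.54), Serpina1d (-1.996 to 0.19), Serpina3f (-0.96 to 0.04) and Serpina3g (-0.40 to 0.58). The cause was not tested. At 3 counts over the KMS group the floor was 0.168 CPM, which limits the folds of members at 0. With 1 library left out, the lone library of its genotype is assumed to vary like the other genotype. Members that entered such a fit through KM alone could only be lower in it.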
